A study of Rattus norvegicus with 9 samples.

Results

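Aminoacyl-tRNA synthetases are the enzymes that join each amino acid to its own transfer RNA. The 34 genes described here were those whose symbol is a one-letter amino acid code followed by ars, with the suffixes used for phenylalanine and for the mitochondrial forms, and whose mean deposited value was at least 10. All 34 genes that matched the symbol rule passed this level, and they made up 0.185% of the 18420 genes in the table. Of these, 19 encode cytosolic forms and 15 encode mitochondrial forms, whose symbols end in 2. Qars, Mars2 and Tars2 were not matched by symbol and were not analysed here.

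RNA was measured by stranded mRNA sequencing in flash frozen kidney cortex from 9 diabetic ZDF fa/fa rat samples. The fa/fa genotype is a loss of leptin receptor function, and ZDF rats carrying it become obese and diabetic. All 9 samples carry the label Medical Bypass, which the series title sets against gastric bypass, and they are called replicates 1 to 9. The labels state neither drugs, ages nor whether the samples came from separate animals. The p-values below are therefore judged only against the variation between these samples, and no effect of treatment, diabetes or genotype can be estimated.

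In the cytosol, charged transfer RNAs supply the ribosomes that read nuclear mRNAs. A separate set of nuclear-encoded synthetases is imported into mitochondria, where it charges mitochondrial transfer RNAs for the respiratory chain subunits encoded in mitochondrial DNA. Proximal tubule cells, which fill most of the kidney cortex, are rich in mitochondria. Many cytosolic synthetase genes are known targets of ATF4, the transcription factor of the amino acid and integrated stress responses.

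The libraries held 10757440 to 43071223 reads in genes. Markers of the labelled tissue were abundant: Slc34a1, the phosphate carrier of the proximal tubule, had a value of 79242 ± 21463, and Nphs1, a podocyte slit protein, had 2052 ± 333 (SD, n = 9). The summed level of 5 lymphocyte markers was 17.0 to 32.9. The 5 proximal tubule markers summed to 98723 in replicate 1 and to 193163 in replicate 8, the extremes. In bulk tissue, fewer cells of a type and less RNA per cell cannot be told apart. Reads aligned to more than 1 place in the genome, which are not assigned to genes, made 14.9% to 22.1% of counted reads, with replicate 5 highest and replicate 1 next at 19.2%.

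Promoter sequences are shown because a short motif occurred in promoters of cytosolic forms and in none of those matched for mitochondrial forms, a feature that owes nothing to the expression values. RefSeq promoters of the build GRCr8, each from 250 bases before to 50 after the gene's start, were matched for 30 of the 34 genes. Among the cytosolic genes, Dars, Gars and Rars were not matched. The motif TTGCATCA, on either strand, is the core of the site at which ATF4 is known to bind with C/EBP factors. It occurred in 7 of 16 cytosolic promoters (43.8%), those of Aars, Cars, Iars, Mars, Nars, Tars and Yars. It occurred in 0 of 14 mitochondrial promoters and in 0.795% of all 33469 promoters of the same length. A looser form, TGATGNAA on either strand, which includes the first motif, was found in the same 7 of 16 cytosolic promoters, in 0 of 14 mitochondrial ones and in 3.98% of all promoters. Aars held 2 such matches. A match is a description of these letters and not a bound site.

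The stretches below carry the motif in capitals and read along the gene, 5′ to 3′. The Aars stretch is chr19:55908334-55908413 on the plus strand, the Mars stretch chr7:65023754-65023833 on the minus strand, the Tars stretch chr2:62114803-62114882 on the minus strand and the Iars stretch chr17:15193653-15193732 on the minus strand. These lie before the start of their genes. The shorter Yars stretch, chr5:146820183-146820212 on the plus strand, and the Cars stretch, chr1:208225334-208225363 on the minus strand, lie just after it. The coordinates are those of GRCr8, whereas the reads were counted on an older build.
Aars: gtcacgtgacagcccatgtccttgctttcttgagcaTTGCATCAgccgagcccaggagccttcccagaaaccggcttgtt
Mars: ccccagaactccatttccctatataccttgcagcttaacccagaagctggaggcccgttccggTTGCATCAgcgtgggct
Tars: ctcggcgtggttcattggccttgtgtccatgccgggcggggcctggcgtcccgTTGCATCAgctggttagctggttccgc
Iars: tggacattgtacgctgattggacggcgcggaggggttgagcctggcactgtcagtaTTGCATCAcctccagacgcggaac
Yars: cggagctacgagctcagcTGATGCAAcctg
Cars: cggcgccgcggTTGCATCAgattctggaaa
In Mars, Tars and Iars the first base of the motif lay 17, 27 and 24 bases before the start, and in Aars 112 bases before it. Yars carried the motif on the opposite strand.

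All 34 synthetases were detected in all 9 libraries, with at least 24 reads in the weakest case. The values are reads divided by a library size factor and are not corrected for gene length, so their order is not an order of transcript abundance. Cytosolic forms had mean values from 660 (Cars, the cysteine enzyme) to 5620 (Aars, the alanine enzyme), and mitochondrial forms from 48.2 (Ears2, for glutamate) to 956 (Fars2, for phenylalanine). The 19 cytosolic genes together took 0.199% ± 0.00927 of the reads in genes, and the 15 mitochondrial genes 0.0365% ± 0.00137 (SD, n = 9). The cytosolic share was lowest in replicate 2, at 0.186% (Wilson 95% interval 0.184% to 0.187%), and highest in replicate 9, at 0.211% (0.209% to 0.213%). The mitochondrial share was highest in replicate 2, at 0.0388% (0.0380% to 0.0395%), and lowest in replicate 5, at 0.0350% (0.0344% to 0.0356%). These intervals cover counting error only, and replicate 2 held the lowest cytosolic and the highest mitochondrial share.

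**Figure D1:**
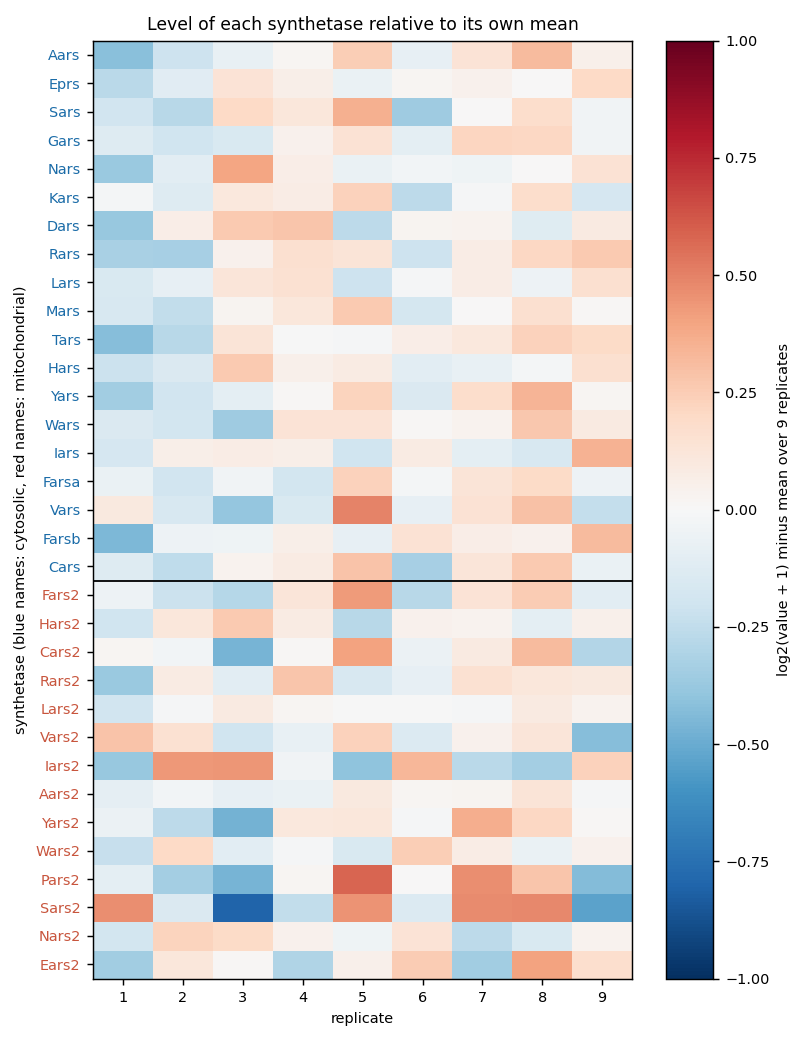
Level of the synthetases described in the text in each replicate, as log2(value + 1) minus the gene's mean over the 9 replicates. The cytosolic genes (blue names) are above the line and the mitochondrial genes (red names) below it, each ordered by mean. Replicate 1 is below the mean for most cytosolic genes, and Iars2 and Sars2 show opposite patterns.

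The 3 largest deposited values were those of Aars, Eprs and Sars. Aars had values of 4162, 4810, 5283, 5646, 6602, 5252, 6124, 6932 and 5772 in replicates 1 to 9. Eprs, the single protein that charges both glutamate and proline transfer RNAs, had 4363, 4866, 5773, 5484, 5017, 5328, 5414, 5278 and 6037. Both were lowest in replicate 1, but Aars was highest in replicate 8 and Eprs in replicate 9. Sars, the serine enzyme, had 3137, 2959, 4113, 3880, 4588, 2798, 3591, 4045 and 3502, with its lowest value in replicate 6 and its highest in replicate 5.

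The 3 smallest values were those of the mitochondrial genes Ears2, Nars2 (asparagine) and Sars2 (serine). Ears2 had 37.0, 51.3, 47.8, 38.2, 49.0, 56.7, 36.9, 63.1 and 53.4 in replicates 1 to 9. Nars2 had 206, 273, 267, 241, 226, 257, 195, 210 and 240. The spread of Ears2 was 1.86 times the variance that counting alone would give, and that of Nars2 3.34 times. Sars2 had 378, 249, 157, 231, 376, 250, 380, 383 and 189. Its variance was 32.2 times that of counting, with replicates 1, 5, 7 and 8 between 376 and 383 and the other replicates at 250 or less.

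Synthetase levels varied little between replicates. The median coefficient of variation was 13.7% for the cytosolic and 15.2% for the mitochondrial genes, beside 20.4% over 10533 genes whose mean reached 100. The ratio of each gene's variance to that of genes at a like level was computed with limma. It had a median of 0.65 in cytosolic genes, 0.54 in mitochondrial genes and 1.11 in all 13647 genes tested. It was below 1 in 18 of 19 cytosolic genes, all but Vars (1.20), and in 11 of 15 mitochondrial genes, whereas 54.9% of all genes were at 1 or above. With every library scaled to the same total of reads in genes, the medians were 0.37 in cytosolic and 0.50 in mitochondrial genes, so the order of both forms depends on the scaling.

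The mitochondrial forms held both extremes of this spread. Aars2 (alanine) had values of 469, 489, 472, 476, 534, 505, 509, 544 and 493 in replicates 1 to 9, a variance ratio of 0.075. Lars2 (leucine) had 570, 644, 693, 659, 649, 649, 645, 691 and 665, a ratio of 0.094. Both stayed within a narrow band, 1.16-fold for Aars2 and 1.22-fold for Lars2 from the lowest to the highest replicate, with replicate 1 lowest in each. Sars2, given above, had the highest ratio at 2.45 and a 2.44-fold range. Iars2 (isoleucine) followed, at 1.75, with 443, 778, 784, 562, 436, 724, 477, 454 and 676. Iars2 was high in replicates 2, 3, 6 and 9, each of which was low for Sars2. The ratio was above 1 in 5 synthetases, Vars, Sars2, Iars2, Pars2 (1.53) and Cars2 (1.01), but none passed the test. limma's variance test called 0 of the 34, and 0 of 34 had an unadjusted p under 0.05, beside a background of 0% of all genes called and 4.2% with an unadjusted p under 0.05. The lowest adjusted p among the synthetases was 0.957 with limma, as it was over all genes. Even the highest ratio over all genes, 55.1, was not called, so 0 calls say nothing particular about the synthetases.

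The multi-synthetase complex, in which several cytosolic synthetases are held together by the scaffold proteins Aimp1, Aimp2 and Eef1e1, was represented by Dars, Eprs, Iars, Kars, Lars, Mars and Rars. Kars (lysine, which serves both compartments from a single gene) had a mean of 3010 ± 340, Dars (aspartate) 2454 ± 365 and Rars (arginine) 1998 ± 304. Lars (leucine) had 1959 ± 180, Mars (methionine) 1877 ± 217 and Iars (isoleucine) 1179 ± 148 (SD, n = 9). Lars had the lowest coefficient of variation among cytosolic genes, 9.19%. The scaffold genes had means of 1246 ± 226 (Aimp1), 677 ± 122 (Aimp2) and 734 ± 102 (Eef1e1).

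Among the synthetases outside the complex, Gars (glycine, also shared by both compartments) had a mean of 3207 ± 356, Nars (asparagine) 3132 ± 453 and Tars (threonine) 1603 ± 225. Hars (histidine) had 1483 ± 159, Yars (tyrosine) 1450 ± 221 and Wars (tryptophan) 1411 ± 185. The phenylalanine enzyme needs both of its subunits, and these had similar deposited values of 1144 ± 122 (Farsa) and 1006 ± 138 (Farsb). Their correlation over the 9 replicates was 0.04, and Farsa was highest in replicate 5, and Farsb in replicate 9. Vars (valine) had 1049 ± 210, with 1102, 924, 790, 927, 1452, 972, 1138, 1264 and 872 in replicates 1 to 9, and Cars had 660 ± 97.6 (SD, n = 9). Vars was highest in replicate 5 and lowest in replicate 3.

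The other mitochondrial genes lay between 301 and 866. Hars2 had a mean of 866 ± 98.1, Cars2 683 ± 125 and Rars2 662 ± 87.1. Vars2 had 616 ± 93.9, Yars2 392 ± 64.9, Wars2 389 ± 43.4 and Pars2, for proline, 301 ± 81.0 (SD, n = 9). RefSeq also lists Vars2 among the older names of the cytosolic valine gene, so its assignment to mitochondria rests on the symbol in the table. Pars2 ranged 2.07-fold, from 211 in replicate 3 to 436 in replicate 5.

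For 13 amino acids both a cytosolic and a mitochondrial form were measured, which gives 14 pairs because Fars2 was set against both Farsa and Farsb. The cytosolic form had the larger deposited value in all 9 replicates in 11 pairs, the exceptions being Cars with Cars2 and both phenylalanine pairs. Without length correction this ratio is not a ratio of transcripts. How far it moves between replicates does not depend on length. That movement ranged from 1.26-fold (Lars with Lars2) to 3.14-fold (Sars with Sars2), with a median of 1.51-fold over the 14 pairs.

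The serine pair had log2 ratios of 3.05, 3.57, 4.70, 4.06, 3.61, 3.48, 3.24, 3.40 and 4.21 in replicates 1 to 9, a mean of 3.70 ± 0.52 (SD, n = 9). The ratio was highest in replicate 3, where Sars was above its mean and Sars2 was at its lowest. The leucine pair, the steadiest, had a mean of 1.58 ± 0.12 (SD, n = 9). Levels of the 2 forms were correlated positively across the 9 replicates in 13 of 14 pairs, with a median Pearson r of 0.52. Over all 285 pairings of a cytosolic with a mitochondrial gene, 172 were above 0 and the median was 0.21. The correlation was 0.81 for Aars with Aars2, 0.08 for Sars with Sars2 and -0.09 for Farsb with Fars2. These points share libraries and size factors, and the correlations are descriptions.

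**Figure D2:**
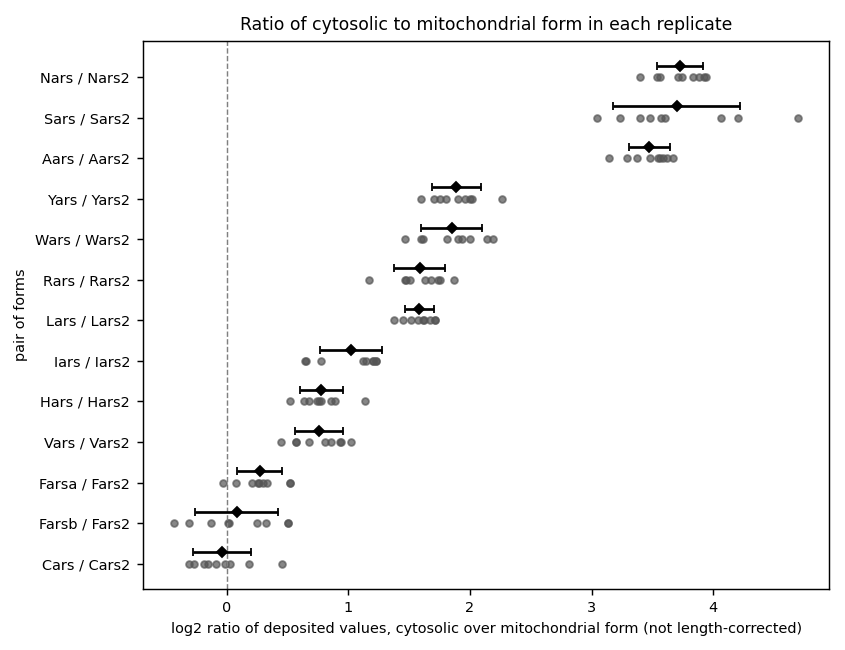
Log2 ratio of the cytosolic to the mitochondrial form for the pairs reported. Grey points are the 9 replicates and the black diamond with its bar is the mean ± SD, drawn just above them. The ratio of Sars to Sars2 spans 3.05 to 4.70, the widest of the pairs, and Cars with Cars2 lies around 0.

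The mean pairwise Pearson r over the 9 replicates was 0.37 among the 19 cytosolic genes, 0.052 among the 15 mitochondrial genes and 0.00054 among all 13647 genes tested. The cytosolic value fell to 0.096 when every library was scaled to the same total of reads in genes and to 0.25 without replicate 1, and the mitochondrial value turned to -0.027 without replicate 1. Replicate 1 held the lowest value for 8 of 19 cytosolic and 4 of 15 mitochondrial genes, and for 13.1% of all genes tested. It also had the lowest summed level of proximal tubule markers. The summed thick ascending limb (104113), collecting duct principal cell (21597.5) and adipose (1250) markers were highest in replicate 1. The part of all these markers in the lower synthetase levels of replicate 1 was not tested.

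Aars and Yars were the closest pair, with r = 0.98. Yars had 1127, 1255, 1344, 1450, 1678, 1301, 1624, 1813 and 1454 in replicates 1 to 9 and, like Aars, was lowest in replicate 1 and highest in replicate 8. Mars with Sars (r = 0.94), Cars with Mars (0.93) and Cars with Sars (0.93) followed among the cytosolic pairs. The cytosolic Vars lay closer to mitochondrial genes, with r = 0.94 to Cars2 and 0.91 to Sars2. At the other end, r was -0.90 for Iars with Vars2 and -0.87 for Iars2 with Sars2. The low mean among mitochondrial genes therefore combined pairs that moved together with pairs that moved in opposition: 59 of 105 mitochondrial pairs had r above 0, beside 135 of 171 cytosolic pairs.

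Each synthetase was then set against 3 scores of the replicates, with slopes in log2 units per SD of the score, fitted with limma across all genes and adjusted by Benjamini-Hochberg. The first score averaged 16 known ATF4 targets, none of them a synthetase. Atf4 itself had a mean of 4251 ± 510, and Asns, the asparagine synthetase gene often used as a readout of ATF4, 261 ± 42.5 (SD, n = 9). Replicates 5 and 8 had the highest scores. The serine and glycine synthesis genes Phgdh, Psph and Shmt2, which the proximal tubule also expresses, were high in both. Asns did not share this pattern, being highest in replicate 1, at 338, and lowest in replicate 3, at 183. Cebpg, Ddit3, Mthfd2, Slc7a1, Slc7a5 and Stc2 also peaked outside replicates 5 and 8. The other genes of the score peaked in either of these replicates.

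No synthetase passed the test on the ATF4 target score. With limma 0 of 34 were called, beside 0% of all genes, and 10 of 34 had an unadjusted p under 0.05, all with positive slopes, beside 32.8% of all genes (16% positive and 16.8% negative). The median slope was 0.11 in cytosolic, 0.07 in mitochondrial and 0.01 in all genes. With the same total per library 6 of 34 had an unadjusted p under 0.05, 1 with a positive and 5 with a negative slope, beside 6.82% positive and 16% negative of all genes. The median slopes were then 0.018 in cytosolic, 0.00051 in mitochondrial and -0.04 in all genes. The signs of the synthetases with an unadjusted p under 0.05, and the size of the median slopes, thus depended on the scaling. The largest t values were those of Vars (slope 0.21 ± 0.07, SE, adjusted p = 0.0762), Yars (0.18 ± 0.06, 0.0813), Aars (0.18 ± 0.06, 0.0830) and Fars2 (0.19 ± 0.07, 0.0841). edgeR also called 0 of 34, beside 0 of 13631 genes. DESeq2 called 3 of 34, Vars, Yars and Aars, beside 21.8% of all genes. Without replicate 1 limma called 2 of 34, Vars with a positive and Iars2 with a negative slope, beside 26.2% of all genes. Without replicate 3 it called Vars alone, beside 13% of all genes. With Asns alone in place of the score, the slopes of Aars and Yars were -0.04 and -0.01. That fit called 0 of 34, beside 0 of 13631 genes.

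Slopes are given by promoter motif as a description. The 7 cytosolic genes whose promoters hold TTGCATCA had slopes from -0.10 to 0.18 with a median of 0.13. The 9 cytosolic genes with a matched promoter and no motif had slopes from -0.06 to 0.21 with a median of 0.11. Aars and Yars, the pair with the highest correlation, both hold the motif, whereas Vars does not. Iars, whose sequence is shown above, had the lowest slope of the motif group. On the mitochondrial ribosomal protein score described next, 4 of the 7 with the motif and 2 of the 9 without it were called. The share over all genes was 31.5%. None of these called genes remained so without replicate 5 or with the same total per library. Neither difference between the motif groups was tested.

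The second score averaged 68 nuclear genes for mitochondrial ribosomal proteins, which work beside the mitochondrial synthetases. It shared its extremes with the ATF4 target score. Replicates 5 and 8 were highest on both, at 1.54 and 1.26 here and at 1.80 and 1.62 on the ATF4 target score. Replicate 2 was lowest on both, at -1.38 and -0.88. The fits on these 2 scores are therefore not separate observations of the synthetases. Along the second score 7 cytosolic genes rose, while 2 mitochondrial genes rose and 1 fell. Of the 34 synthetases 10 passed limma's test (29.4%), beside 31.5% of the 13579 genes tested, so the share of synthetases was near that of all genes. Positive slopes were called for 9 synthetases, beside 14.6% of all genes, and a negative slope for 1, beside 16.9%. The cytosolic genes with positive slopes were Aars, Cars, Gars, Mars, Sars, Vars and Yars, and the mitochondrial ones were Fars2 and Pars2. Mars was the 1 gene called among the 7 complex members, and the other 6 were among the 12 cytosolic genes outside the complex. The difference between these groups was not tested.

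Markers of several cell types were called on the same score. Of 5 proximal tubule markers 3 rose: Slc34a1 by 0.28 ± 0.10 (SE, limma adjusted p = 0.0396), Slc5a2 by 0.27 ± 0.08 (0.0253) and Slc22a6 by 0.36 ± 0.09 (0.0142). Of 6 macrophage markers 3 rose, C1qa, C1qb and C1qc, by 0.38 ± 0.10 (0.0172), 0.31 ± 0.08 (0.0154) and 0.39 ± 0.10 (0.0126). The macrophage markers summed to 5946 in replicate 3 and 9145 in replicate 5, the extremes. Slc12a1, 1 of 2 thick ascending limb markers, fell by 0.38 (SE 0.08, 0.00548), and Podxl, 1 of 4 podocyte markers, fell by 0.19 (SE 0.06, 0.0371). Mylpf, 1 of 3 skeletal muscle markers, rose by 0.58 ± 0.15 (0.0134). Skeletal muscle markers were low, summing to 26.4 in replicate 2 and 82.0 in replicate 5, the extremes. With the proximal tubule marker score as a covariate 5 synthetases were called, beside 4259 of the 13579 genes tested. Without the covariate 10 synthetases and 4276 genes were called. The part of the other markers in the synthetase slopes was not tested.

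Pars2 had the largest positive slope on this score among the called genes, 0.32 ± 0.08 (SE), with an adjusted p of 0.0134 by limma. Fars2 followed at 0.23 ± 0.05 (0.0072), then Vars at 0.22 ± 0.07 (0.0223) and Cars at 0.20 ± 0.05 (0.0145). Iars2 was the single gene to fall, by 0.29 log2 units per SD of the score (SE 0.08, limma adjusted p = 0.0145). Fars2 had values of 908, 813, 772, 1027, 1270, 780, 1035, 1124 and 875 in replicates 1 to 9, high in the same replicates 5 and 8 in which the score was high.

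Of the other called cytosolic genes, Gars had values of 2920, 2783, 2876, 3294, 3519, 2974, 3699, 3686 and 3111 in replicates 1 to 9. Mars had 1672, 1574, 1899, 2021, 2234, 1654, 1868, 2086 and 1886. Cars had 596, 548, 669, 691, 799, 520, 710, 786 and 624. Mars and Cars were highest in replicate 5 and next highest in replicate 8, and Gars was high in replicates 5, 7 and 8. The slopes were 0.15 ± 0.05 for Gars (SE, limma adjusted p = 0.0362) and 0.14 ± 0.05 for Mars (0.0450). Those of Sars, Yars and Aars were 0.19 ± 0.06 (0.0378), 0.19 ± 0.06 (0.0240) and 0.18 ± 0.06 (0.0401).

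These calls changed with single libraries and with the scaling. Without replicate 5 limma called 0 of the 34 synthetases, beside 9.07% of all genes. In that fit 9 of 34 had an unadjusted p under 0.05, beside 4082 of the 13579 genes tested. Without replicate 8 it called 3, Fars2, Pars2 and Iars2, beside 19.3% of all genes. The median cytosolic slope was 0.13 with all replicates, 0.11 without replicate 5 and 0.12 without replicate 8. With every library scaled to the same total of reads in genes, 7 synthetases were called, beside 33.4% of all genes, and none of the 7 cytosolic genes named above remained. The 7 were Dars and Iars (cytosolic) and Hars2, Iars2 and Nars2 with negative slopes, and Fars2 and Pars2 with positive ones. Fars2, Pars2 and Iars2 were thus called with both scalings. Over all genes that scaling moved the calls from 1985 positive and 2291 negative to 1353 and 3185. With the share of multiply aligned reads as a covariate, 0 synthetases and 0 genes in all were called by limma, and 8 synthetases had an unadjusted p under 0.05, beside 18.4% of all genes. The median slope was then 0.16 in cytosolic and 0.07 in mitochondrial genes, beside 0.13 and 0.02 without the covariate.

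Other genes of the charging pathway are set beside the same shares of all genes, 14.6% positive and 16.9% negative, and with so few genes a group the counts are descriptions. Of the 3 scaffold genes 1 was called, Aimp2, with a slope of 0.22 ± 0.06 (SE, limma adjusted p = 0.0181). Of 5 synthetase-like and tRNA editing genes 1 was called, Aarsd1, which clears serine wrongly joined to alanine tRNA, at 0.30 ± 0.05 (0.00242). None of the 4 mitochondrial charging partners was called: Gatb, Gatc and Qrsl1, which together make glutaminyl-tRNA in mitochondria, and Mtfmt, which formylates the initiator. Of 10 genes for tRNA end making and elongation 5 were called, all upward: Eef1b2, Eef1d, Eef1g, Tufm and Tsfm. Tufm and Tsfm, which deliver charged tRNA to the mitochondrial ribosome, had slopes of 0.25 ± 0.05 (0.00383) and 0.35 ± 0.09 (0.016). Of 8 genes of the amino acid response 2 were called, both downward. Eif2ak4, the kinase GCN2 that senses uncharged tRNA, fell by 0.18 (SE 0.06, limma adjusted p = 0.0343), and Eif2ak2, the kinase PKR that senses double-stranded RNA, fell by 0.31 (SE 0.10, 0.0332).

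The third score averaged 16 interferon-induced genes, because Wars is known to be induced by interferon gamma. With limma 0 of 34 synthetases were called and 0 of 34 had an unadjusted p under 0.05, beside 0% and 4.25% of all genes. edgeR and DESeq2 also called 0 of 34, each beside 0 of 13631 genes. The slope of Wars was 0.09 ± 0.08 (SE, adjusted p = 0.749 with limma). Wars had values of 1265, 1233, 1093, 1541, 1540, 1412, 1436, 1690 and 1493 in replicates 1 to 9. Its highest value was in replicate 8, whereas the interferon score was highest in replicate 4.

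**Figure D3:**
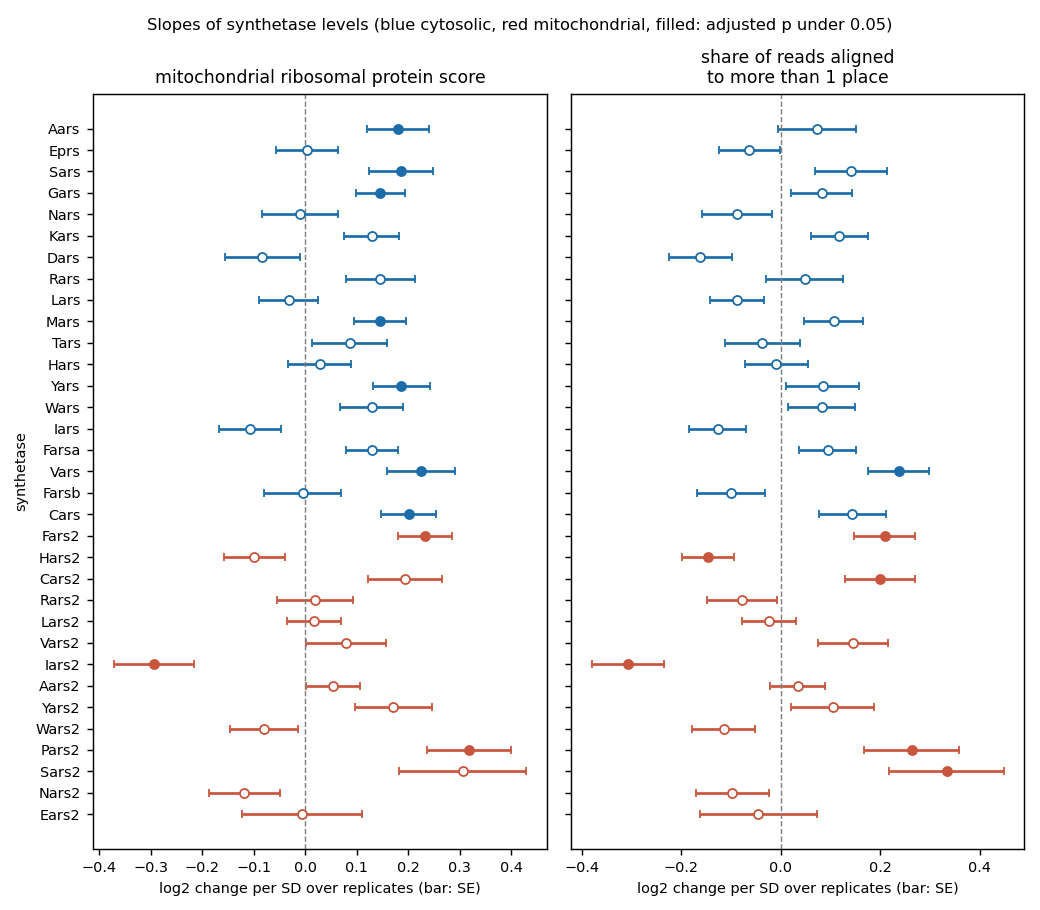
Slopes of the synthetases described in the text on the mitochondrial ribosomal protein score (left) and on the share of multiply aligned reads (right), in log2 units per SD, with SE bars. Blue marks cytosolic and red mitochondrial genes, and filled points have an adjusted p under 0.05. Iars2 lies lowest in both panels, and 10 points are filled on the left and 7 on the right.

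The percentage of multiply aligned reads moved with the mitochondrial ribosomal protein score, and the synthetases were also set against it, in a fit added after the data were seen. Of the 34 synthetases 7 were called by limma (20.6%), beside 35% of all genes tested. Positive slopes were called for 5, Vars, Fars2, Cars2, Pars2 and Sars2, beside 16.3% of all genes, and negative ones for 2, Iars2 and Hars2, beside 18.7%. Among these 7, 6 were mitochondrial forms. edgeR called 6, all but Pars2, beside 35.4% of all genes, and DESeq2 called 8, these 7 and Dars, beside 39.6%. Without replicate 5 Iars2 alone was called, beside 12.8% of all genes. Scaled to the same total 5 were called, Vars and Fars2 upward and Iars2, Hars2 and Dars downward, beside 31.5% of all genes, while the calls over all genes moved from 2225 positive and 2549 negative to 1489 and 2814.

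Iars2 and Sars2 had the steepest slopes on that share. Iars2 had a slope of -0.31 ± 0.07 (SE, limma adjusted p = 0.0079), and Sars2 of 0.33 ± 0.11 (0.0396). In the 4 replicates with the lowest share, 2, 3, 6 and 9, Iars2 was 676 or more and Sars2 250 or less. In the other replicates Iars2 was 562 or less, and Sars2 was 376 or more apart from replicate 4, at 231. Hars2 had 750, 931, 1033, 911, 710, 886, 881, 804 and 890 in replicates 1 to 9 and a slope of -0.15 ± 0.05 (SE, limma adjusted p = 0.0446).

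Cars2 had 680, 661, 488, 678, 890, 645, 717, 836 and 548 in replicates 1 to 9 and a slope of 0.20 ± 0.07 (SE, limma adjusted p = 0.0438). Pars2 had 273, 230, 211, 295, 436, 293, 402, 353 and 216 and a slope of 0.26 ± 0.10 (0.0485). Both were highest in replicate 5 and lowest in replicate 3. The slopes of Vars and Fars2 were 0.24 ± 0.06 (0.0124) and 0.21 ± 0.06 (0.0193). Dars, the cytosolic aspartate gene, had 1869, 2547, 2918, 2944, 2020, 2481, 2489, 2229 and 2585 in replicates 1 to 9, lowest in replicates 1 and 5. Its slope of -0.16 ± 0.06 did not pass the threshold (limma adjusted p = 0.0615).

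**Figure D4:**
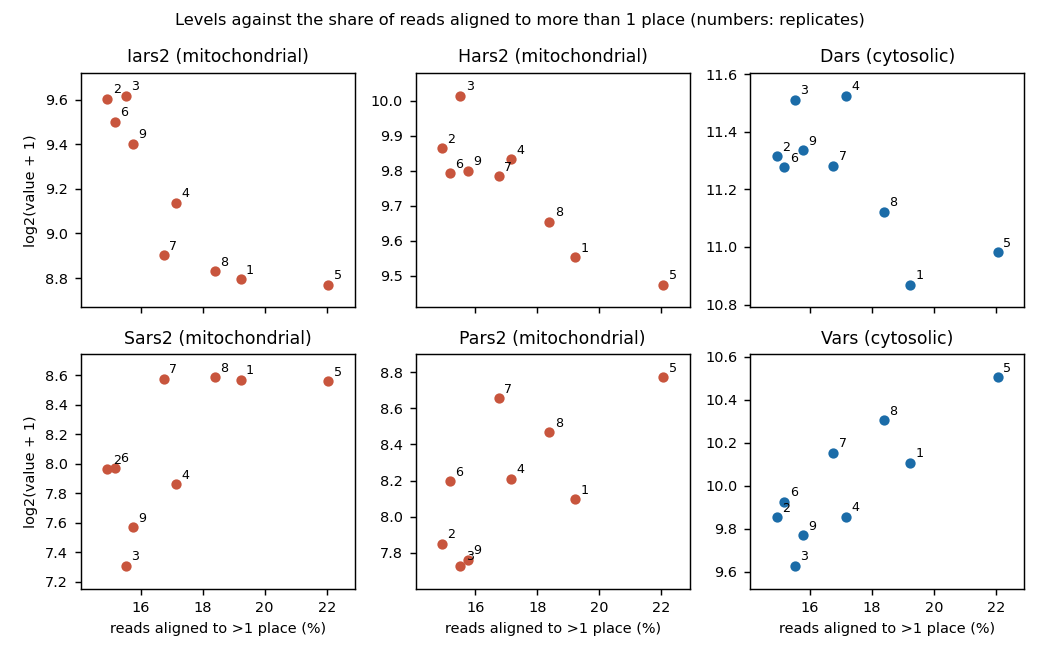
Level of 6 synthetases, as log2(value + 1), against the percentage of counted reads aligned to more than 1 place, with each point numbered by replicate. Iars2, Hars2 and Dars are lowest in replicates 1 and 5, while Sars2, Pars2 and Vars are high in replicate 5.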

How the data were processed

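The deposited signal was made by the authors by dividing gene counts by a size factor per library, without length correction, per the file's values. Per the submitters' processing notes, FastQC 0.11.2, MultiQC 0.9, HTSeq 0.6.1p1 and DESeq2 were used with the build Rnor_5.0. The aligner is not given in the sources used here. Whole reads were recovered from the steps between low values (tolerance 0.1 read).

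Genes with a mean of at least 10 were analysed as log2(value + 1), so slopes of low genes are understated. Variance and slope tests used limma 3.58.1 in R 4.3.3 with Benjamini-Hochberg adjustment over all genes at 0.05. edgeR 4.0.16 and DESeq2 1.42.0 were run on the recovered reads. Each score averaged its genes' standardised values and was scaled to an SD of 1, and its genes were left out of its own fit. Tested on simulated data for the slope on the ATF4 target score, 195 of 200 genes seeded with a slope of 1 log2 unit per SD were recovered among 13647, with 13 false calls. That slope is larger than any of the synthetases, so recovery of slopes of their size is not known. A planned comparison per coding length was not made because no lengths were used here. Values per replicate are given for the 3 largest and 3 smallest means, the 2 highest and lowest variance ratios, and called genes or the 4 largest t in a fit, and for Wars on the interferon score. Dars was added after its values were seen. The members and lists were chosen with earlier results of these data known. The totals count 1 mitochondrial form that is not reported here by name.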

Additional observations from a re-analysis of the deposited data

Results flagged for a closer look

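Of 50 sets of 9 values examined (34 levels, 14 ratios of forms and 2 shares of reads), 1 held a replicate far from the others. Lars2 in replicate 1 had a log2 level of 9.16, with the next lowest replicate at 9.33, a gap that was 0.63 of the whole range. Chance flags about 1 in 20 such sets. Replicate 1 also held the lowest summed proximal tubule markers, and their part in the Lars2 value was not tested.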

How the results depend on the processing

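No paired analysis was possible because all samples belong to 1 group. The variance test called 0 synthetases and 0 genes in all under every alternative run, and the interferon fit likewise. Without replicate 4, the highest on the interferon score, limma gave 2 synthetases an unadjusted p under 0.05, beside 3010 of 13631 genes. With all replicates these were 0 and 579. On the ATF4 target score 0 became 3 with DESeq2, beside 2968 of 13631 genes. With 1 replicate left out it ran from 0 to 2, the 2 being without replicate 1, beside 3568 genes. With Asns alone, the slopes of Yars and Aars reversed to -0.014 and -0.040. On the mitochondrial ribosomal protein score 10 became 6 without the filter on low values, beside 3914 of 18087 genes. With library size as a covariate it became 4, beside 2795 of 13579 genes. With the proximal tubule score as a covariate it became 5, beside 4259 of 13579, and with the multiply aligned share 0, beside 0. The count ran from 0 to 12 with 1 replicate left out, beside 1232 and 5473 genes. On the multiply aligned share 7 became 3 without the filter, beside 4349 of 18155 genes. With library size as a covariate 7 became 2, beside 3600 of 13647. The count ran from 1 to 7 with 1 replicate left out, beside 1740 and 4920 genes. The cause of these changes was not tested. The median log2 ratio of forms and the 2 shares of reads moved by less than 1 SD. The mean correlation of cytosolic genes was 0.096 with the same total per library and ran from 0.25 to 0.44 with 1 replicate left out. That of mitochondrial genes ran from -0.027, without replicate 1, to 0.070. The comparison per coding length was not run. Depth limits Ears2 most, with 24 reads in its weakest library.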
